A study of Mus musculus with 6 samples.

Results

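The genes described here encode ligands through which tumor cells engage inhibitory or costimulatory receptors of T cells, natural killer cells and macrophages. They are Cd274 (PD-L1), Pdcd1lg2 (PD-L2), Cd276 (B7-H3), Vtcn1 (B7-H4), Cd80, Cd86, Lgals9 (galectin-9), Pvr (CD155), Nectin2 (CD112) and Cd47. The identifiers of the count tables were matched to these 10 symbols in the GENCODE M21 annotation, so that 10 of the 55335 counted genes were taken, by name. Their RNA was measured in B16-BL6 cells, a transplantable mouse melanoma line of C57BL/6 origin, grown in culture in the absence of host cells.

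Poly(A) RNA was sequenced from 3 cultures of scrambled control cells (replicates 1, 2 and 3; genotype WT) and 3 cultures of IFNγR1KO cells (replicates 10, 11 and 12). Both groups had received a lentiviral Cas9 vector and puromycin selection, with a guide against GFP in the scrambled control and guides against the first exon of Ifngr1, the ligand-binding chain of the IFN-γ receptor, in IFNγR1KO cells. Cells were seeded in triplicate and left overnight with no interferon added, so the levels are basal ones. The knockout lines were grown from single cells, and the clones were picked by their PD-L1 expression after IFN-γ and then checked for surface IFNγR1. The product of Cd274 was therefore part of how the IFNγR1KO cells were obtained. Whether the 3 IFNγR1KO cultures are 1 clone is not given, and p-values measure only the spread between cultures, which may be technical.

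PD-L1 and PD-L2 bind PD-1 on T cells and restrain them. CD80 and CD86 bind CD28, which stimulates T cells, and CTLA-4, which restrains them. B7-H3 and B7-H4 are further proteins of the same B7 family. CD155 and CD112 bind TIGIT and the activating receptor DNAM-1 (encoded by Cd226), galectin-9 is a glycan-binding protein and a ligand of TIM-3, and CD47 binds SIRPα on macrophages as a signal against phagocytosis. In many tumor cells IFN-γ acts through JAK1, JAK2 and IRF1 to raise Cd274 transcription. Lgals9 is also known as an interferon-inducible gene.

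Because both genes are known interferon responders, the sequences upstream of Lgals9 and Cd274 are shown, read from the RefSeq promoter windows (250 bases before to 50 bases after the transcription start, GRCm38.p6). Bases in exons of protein-coding transcripts (GENCODE M21) were left out, so that the Lgals9 stretch stops 22 bases short of the start, and the Cd274 stretch covers only the last 129 bases before it, an exon of Plgrkt on the opposite strand lying further upstream. The Lgals9 stretch is chr11:78984947-78985174, minus strand, and the Cd274 stretch is chr19:29367309-29367437, plus strand, both printed 5′ to 3′. Capitals mark a match to the interferon-stimulated response element (ISRE), searched as GAAA, any 2 bases and GAAA again, or on the other strand TTTC, any 2 bases and TTTC.
Lgals9: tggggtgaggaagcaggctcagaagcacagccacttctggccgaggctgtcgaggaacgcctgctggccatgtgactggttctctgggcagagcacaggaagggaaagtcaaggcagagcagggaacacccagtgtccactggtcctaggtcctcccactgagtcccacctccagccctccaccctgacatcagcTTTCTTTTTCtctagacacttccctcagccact
Cd274: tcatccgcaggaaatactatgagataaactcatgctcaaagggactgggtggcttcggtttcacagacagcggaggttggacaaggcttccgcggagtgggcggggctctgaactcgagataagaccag
The marked Lgals9 match began 55 bases before the annotated start, and a second match in its window, TTTCTGTTTC, began 15 bases after it. RefSeq windows were found for 8 of the 10 ligand genes, all except Pvr and Cd86. Lgals9 was the only 1 of these 8 with an ISRE match, whereas 3.44% of the 32851 windows of all genes held one. The gamma-activated sequence (GAS), searched as TTCNNNGAA, which reads alike on both strands, was in 0 of the 8 windows and in 8.3% of all windows. Among 18 interferon-γ target genes with a window, 9 had an ISRE match and 5 had a GAS match. These are matches of letters within 300 bases and give no evidence on binding there or elsewhere.

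The windows also differed in CpG content, expressed as the observed over the expected number of CpG dinucleotides. The ratio was 0.848 in Cd276, 0.796 in Nectin2, 0.722 in Cd274 and 0.862 and 0.878 in 2 windows of Cd47. In contrast, it was 0.16 in Lgals9, 0.164 in Cd80, 0.189 in Pdcd1lg2 and 0.235 in Vtcn1, below the median of 0.384 over all windows. Of the 4 genes above the median all were counted at more than 30 reads in every library, while Lgals9 was the only 1 of the 4 below the median with more than 7. The same shares over all windows were not taken, so this describes these genes only, and a link to CpG content was not tested.

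The scrambled control libraries held 9402640 to 10579788 counts on genes and the IFNγR1KO libraries 6698956 to 7409479, so that 3 counts, taken as the floor, equalled 0.29 to 0.327 CPM and 0.405 to 0.426 CPM. Here, these are counts scaled to a common total of tested genes, with TMM factors (CPM). The floors cover counting error only. Replicates of a group differed by a chi-square of 2.62 to 22.7 per degree of freedom over genes, with scrambled control replicate 3 and IFNγR1KO replicate 12 the furthest from their partners, and no pair was within sampling noise. The RNA of Ifngr1 itself averaged 15.9 ± 1.35 CPM in scrambled control against 11.5 ± 0.0901 CPM in IFNγR1KO cells (SD, n = 3), a log2 fold change of -0.47 (adjusted p = 0.0729 by edgeR). The RNA therefore remained, and counts per gene do not show whether it can encode a receptor. The 7 melanocyte markers summed to 31720 to 34660 CPM in scrambled control and 27900 to 32830 CPM in IFNγR1KO libraries. Of 8 T and NK cell markers, 7 had no count in any library, and Ptprc (CD45) had 1 count in 1 library. Itgam, Itgax, Adgre1, Flt3 and Cd14, which define myeloid and dendritic cells, were also at 0 in every library. Of the other 4 genes of that list, Csf1r had 42 to 96 counts, Lyz2 21 to 65 and Cd68 4 to 11 in every library, and Fcgr3 had 1 count in 1 library.

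Of the 10 ligand genes, 6 passed the filter on low counts. Among them 2, Cd276 and Lgals9, were lower in IFNγR1KO cells with an adjusted p under 0.05, and 0 were higher, also at an unadjusted p under 0.05 and by DESeq2 and limma voom. Over all 13642 genes tested, 15.3% were called in either direction, 7.62% lower and 7.73% higher. Only Cd276 also had an absolute log2 fold change above 1. Of all genes 5.2% met both criteria, 1.96% on the lower side. For 3 of the 6 genes, Cd276, Lgals9 and Pvr, the 2 groups of libraries were fully separate, as they were for 32.6% of all genes. The median log2 fold change of the 6 was -0.02, beside 0.00 over all genes tested. The IFNγR1KO cells thus had lower RNA of 2 ligands, while Cd274 itself was not among them. A difference between clones cannot be told apart from the loss of IFNγR1 in this design, and neither was tested as a cause.

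**Figure D1:**
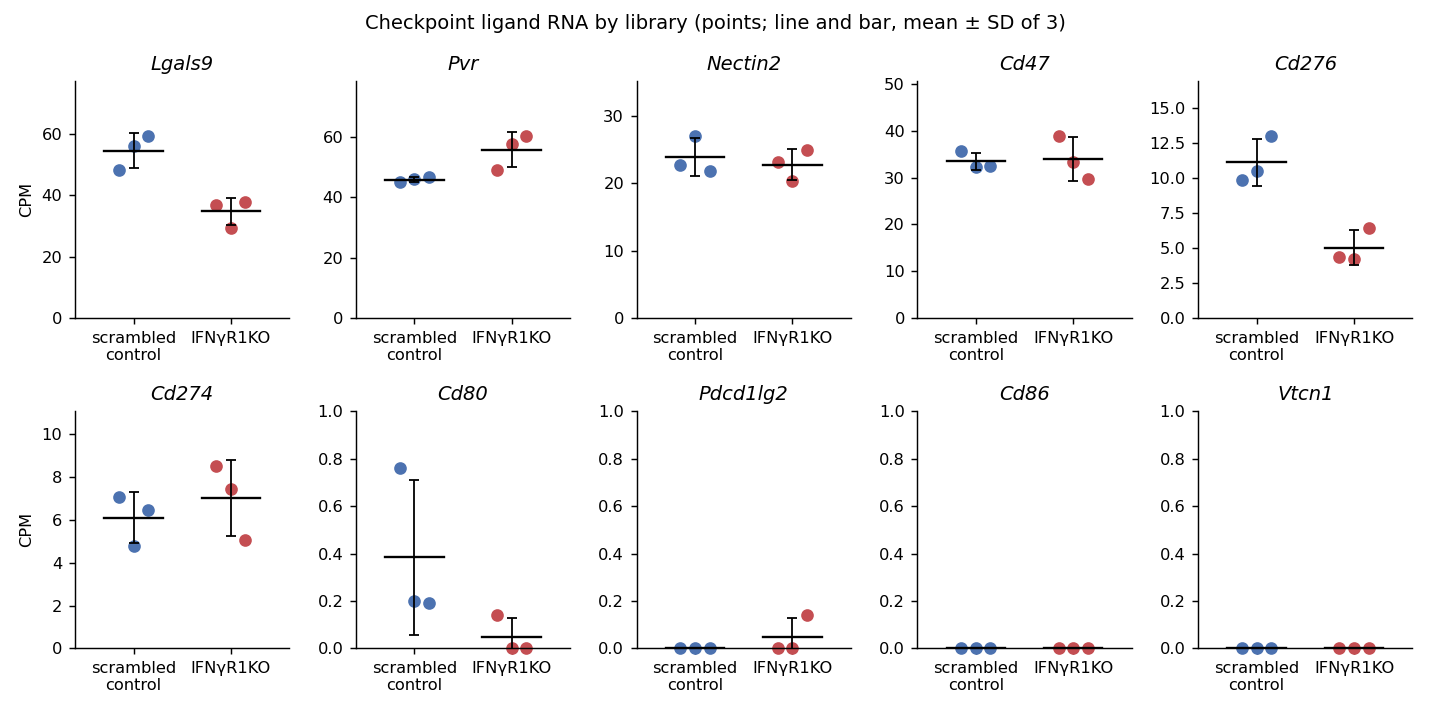
RNA of the 10 ligand genes in CPM (y axis, from 0, a separate scale in each panel) in scrambled control and IFNγR1KO libraries (x axis), with each point 1 library and the line and bar the mean ± SD of 3. The IFNγR1KO points lie below all scrambled control points for Lgals9 and Cd276 and above them for Pvr, and Cd86 and Vtcn1 are at 0 in all 6 libraries.

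To rank the ligands in the scrambled control, levels were expressed per length, as CPM per kilobase of merged exons. Lgals9 was the most abundant at 25.5 (range 22.6 to 27.8), and it ranked above 82.5% of the 13636 tested genes with an annotated length. Pvr followed at 7.48, Nectin2 at 6.84 and Cd47 at 5.33, near the middle of all tested genes (percentiles 55, 52.7 and 45.7). Cd276 was at 3.05 and Cd274 at 1.69, the latter at percentile 18.8. Cd80 was at 0.104, and Pdcd1lg2, Cd86 and Vtcn1 were at 0. Pvr and Nectin2 overlapped in the scrambled control libraries, and no other neighbours in this order did. The untreated melanoma cells thus held far more galectin-9 RNA per length than PD-L1 RNA. With the longest transcript as the length, Lgals9 was at 34.4, Pvr at 15.8, Nectin2 at 8.74 and Cd47 at 6.38, and the order was the same.

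In IFNγR1KO cells Lgals9 was still first, at 16.3 (range 13.8 to 17.7), followed by Pvr at 9.10, Nectin2 at 6.52 and Cd47 at 5.41, the last pair overlapping. Cd276 had fallen to 1.37, at percentile 14.4 of the tested genes, so that it stood below Cd274 at 1.94, with overlapping ranges. In the scrambled control Cd276 had stood above Cd274 without overlap. Summed over the 10 genes, the scrambled control libraries reached 46.9, 50.8 and 52.3, whereas the IFNγR1KO libraries reached 41.7, 37.6 and 42.6. Lgals9 made up 48.0% to 53.2% of this sum in scrambled control and 36.8% to 41.5% in IFNγR1KO libraries. The 2 groups were separate in the summed level and in the share of Lgals9, which is the largest term of that sum.

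**Figure D2:**
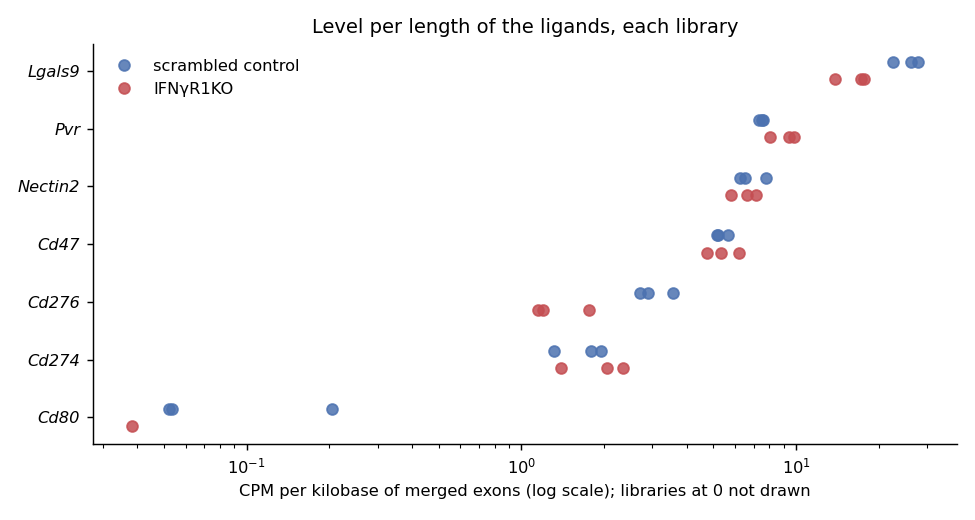
Level of the 7 ligand genes counted in scrambled control, in CPM per kilobase of merged exons (x axis, log scale), with each point 1 library and libraries at 0 left out. Lgals9 lies above all other ligands in both groups, and Cd276 shifts from above Cd274 in scrambled control to overlapping with it in IFNγR1KO libraries.

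Of the B7 ligands among the 10 genes, only Cd274 and Cd276 had enough counts to be tested, and Cd276 was called. Cd276 (ENSMUSG00000035914.11) lies on chromosome 9 from 58524298 to 58555437, minus strand, in GRCm38. Scrambled control replicates 1, 2 and 3 gave 91, 106 and 135 counts, and IFNγR1KO replicates 10, 11 and 12 gave 31, 31 and 46, or 9.88, 10.5 and 13.0 CPM against 4.40, 4.20 and 6.47 CPM. Every IFNγR1KO library was below every scrambled control library, and the highest library of each group was the one furthest from its partners over all genes. The mean of scrambled control was 11.2 ± 1.67 CPM and that of IFNγR1KO cells 5.02 ± 1.25 CPM (SD, n = 3), 2.22-fold lower. The log2 fold change was -1.15 (standard error 0.228, 95% interval -1.65 to -0.66, edgeR adjusted p = 0.0051). It was -1.02 without scrambled control replicate 3 and -1.38 without IFNγR1KO replicate 12. The exact two-sided permutation test gave p = 0.1, the smallest that 3 libraries against 3 allow. Some 11.4% of the exonic bases of Cd276 lie under Gm10657, a transcript of the opposite strand that had 7 to 12 counts in scrambled control and 2 to 4 in IFNγR1KO libraries, and reads of the shared bases cannot be told apart without strand.

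The genes whose log2 CPM followed Cd276 most closely across the 6 libraries were C2cd2l, E2f8 and Tpx2, each with a Pearson r of 0.997 (0.5 CPM added). E2f8 encodes a transcription factor of the cell cycle and Tpx2 a protein of the mitotic spindle. Their log2 fold changes were -0.90 for C2cd2l (adjusted p = 0.00223), -1.03 for E2f8 (adjusted p = 0.00341) and -0.66 for Tpx2 (adjusted p = 0.00805), by edgeR. The correlation describes 6 libraries that share the group difference, and these 3 genes were the highest of all tested.

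Cd274 did not pass the test. This gene (ENSMUSG00000016496.7, chromosome 19 from 29367455 to 29388095, plus strand) was covered by 65, 48 and 67 counts in scrambled control against 60, 55 and 36 in IFNγR1KO libraries. In CPM these were 7.06, 4.78 and 6.47 against 8.52, 7.45 and 5.06. The groups overlapped, and the highest and second highest libraries were both IFNγR1KO. The mean was 6.10 ± 1.18 CPM and 7.01 ± 1.77 CPM (SD, n = 3), a log2 fold change of 0.20 (standard error 0.249, edgeR adjusted p = 0.647; exact two-sided permutation test, p = 0.4). The 95% interval of -0.34 to 0.74 leaves room for a modest change in either direction, since at 36 to 67 counts per library the precision is limited. About 14.1% of its exonic bases lie under the antisense transcript AC119228.1, which had 16 to 30 counts in scrambled control and 21 to 25 in IFNγR1KO libraries (log2 fold change 0.31, edgeR adjusted p = 0.565). The clones were picked for the response of PD-L1 to IFN-γ, which is another measure than this basal RNA, and the part of that choice in the basal level was not tested.

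Because total counts differed between the groups, the ratio of each ligand to Cd274 within a library was also taken, a comparison chosen after the values had been seen. On the log2 scale the ratio of Cd276 to Cd274 was 0.88 in scrambled control and -0.48 in IFNγR1KO cells, a difference of -1.36 with no overlap (exact two-sided permutation test, p = 0.1). The ratio of Lgals9 to Cd274 differed by -0.84, with overlap (exact permutation test, p = 0.2). Pvr, Nectin2 and Cd47 differed from Cd274 by 0.09, -0.25 and -0.17 between the groups, all with overlap.

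The remaining B7 ligands were at or near zero. Pdcd1lg2, which lies 22.8 kb from Cd274 with no protein-coding gene between, had no count in the scrambled control libraries and 1 count in 1 IFNγR1KO library (replicate 12). Cd86 and Vtcn1 had no count in any of the 6 libraries, which allows up to 0.327 CPM in scrambled control and 0.426 CPM in IFNγR1KO libraries. Cd80 had 7, 2 and 2 counts in scrambled control and 1, 0 and 0 in IFNγR1KO libraries. Every scrambled control library was thus above every IFNγR1KO library, but all except 1 of the 6 libraries (scrambled control replicate 1) were under the floor, and Cd80 was not tested.

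Lgals9 (ENSMUSG00000001123.15; chromosome 11 from 78962974 to 78984946, minus strand) had the highest level per length and was also lower in IFNγR1KO cells. Its counts were 444, 563 and 615 in scrambled control against 260, 218 and 269 in IFNγR1KO libraries. In CPM these were 48.2, 56.0 and 59.4 against 36.9, 29.5 and 37.8, with no overlap. The scrambled control mean was 54.5 ± 5.76 CPM and the IFNγR1KO mean 34.8 ± 4.55 CPM (SD, n = 3), 1.57-fold lower. The log2 fold change was -0.65 (standard error 0.150, 95% interval -0.98 to -0.33, edgeR adjusted p = 0.0121; exact two-sided permutation test, p = 0.1). The call did not hold without scrambled control replicate 2 (-0.63, edgeR adjusted p = 0.056) or without IFNγR1KO replicate 11 (-0.53, edgeR adjusted p = 0.0902). The ISRE matches shown above lie at this gene, and their part in the difference was not tested. Cd276, which was also lower, had neither an ISRE nor a GAS match in its window.

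**Figure D3:**
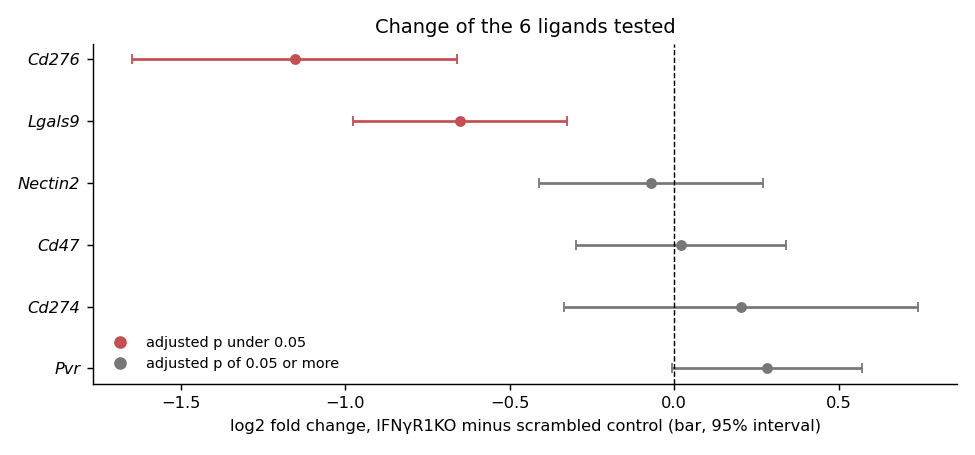
Log2 fold change, IFNγR1KO minus scrambled control (x axis), of the 6 ligand genes that were tested, with bars for the 95% interval and red for an edgeR adjusted p under 0.05. Cd276 at -1.15 and Lgals9 at -0.65 lie left of 0 with their whole interval, while the intervals of Nectin2, Cd47, Cd274 and Pvr include 0.

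The ligands of the nectin family, Pvr and Nectin2, lie 153 kb apart on chromosome 7, with 6 protein-coding genes between them. Pvr (19903578 to 19921160, minus strand) had 44.9, 45.9 and 46.6 CPM in the scrambled control libraries and 49.2, 57.6 and 60.3 CPM in the IFNγR1KO libraries, from 414, 461 and 482 against 346, 425 and 429 counts. All IFNγR1KO libraries were above all scrambled control libraries in CPM, although their counts overlapped. The mean was 45.8 ± 0.82 CPM and 55.7 ± 5.81 CPM (SD, n = 3), a log2 fold change of 0.28 (95% interval -0.01 to 0.57), which did not pass the test (edgeR adjusted p = 0.186; exact two-sided permutation test, p = 0.1).

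Nectin2 (19716644 to 19750483, minus strand) had 22.8, 27.1 and 21.8 CPM in the scrambled control libraries and 23.2, 20.3 and 24.9 CPM in the IFNγR1KO libraries. The groups overlapped, and both the highest value and the second lowest were in scrambled control. The mean was 23.9 ± 2.78 CPM and 22.8 ± 2.30 CPM (SD, n = 3), a log2 fold change of -0.07 (95% interval -0.41 to 0.27, edgeR adjusted p = 0.82), and its sign turned when single libraries were left out. An antisense transcript, Gm20512, covers 3.86% of its exonic bases. Pvr and Nectin2 thus did not pass the test in either direction. Their estimates had opposite signs, and the difference between them was not tested.

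Cd47 (chromosome 16 from 49800533 to 49915010, plus strand) had 35.6, 32.2 and 32.6 CPM in the scrambled control libraries and 38.9, 33.3 and 29.7 CPM in the IFNγR1KO libraries, from 324 to 337 and 211 to 274 counts. The IFNγR1KO libraries held both the highest and the lowest value and enclosed the scrambled control libraries. With 33.5 ± 1.86 CPM against 34.0 ± 4.67 CPM (SD, n = 3), the log2 fold change was 0.02 (95% interval -0.30 to 0.34, edgeR adjusted p = 0.946; exact two-sided permutation test, p = 0.8). Of the 6 genes tested it had the estimate nearest to 0, and a smaller change than its interval spans was not detectable at this depth.

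Receptors of these ligands were looked for in the same cells. Of 11 receptor genes, 7 had no count in any library, among them Pdcd1 (PD-1), Ctla4, Cd28, Tigit, Cd226 and Cd96. Pvrig, a receptor of CD112, had no count in scrambled control and 3, 3 and 0 in IFNγR1KO libraries. Sirpa, the receptor of CD47, reached 51.5 (scrambled control) and 58.4 (IFNγR1KO) CPM per kilobase, above its ligand at 5.33 and 5.41. In CPM it was at 253 ± 19.4 and 287 ± 12.9 (SD, n = 3; log2 fold change 0.18, edgeR adjusted p = 0.415). Havcr2 (TIM-3), a receptor of galectin-9, was at 8.37 ± 1.87 CPM and 7.39 ± 0.548 CPM (SD, n = 3; log2 fold change -0.18, edgeR adjusted p = 0.632), and Rgmb, which binds PD-L2, at 14.7 ± 1.52 CPM and 11.4 ± 1.10 CPM (SD, n = 3; log2 fold change -0.37, edgeR adjusted p = 0.176). Of the 3 receptor genes tested, 0 were called by edgeR, DESeq2 or limma voom, and 0 had an unadjusted p under 0.05. The melanoma cells thus held RNA of receptors of CD47, galectin-9 and PD-L2 and no count of PD-1, CTLA-4, CD28, TIGIT, DNAM-1 or CD96 RNA.

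The path from the IFN-γ receptor to Cd274 was examined next, through 14 genes of the receptor, the JAKs, STATs and IRFs and their inhibitors. Of 13 tested, 2 were lower (15.4%, beside 7.62% of all genes tested) and 0 higher by an adjusted p under 0.05. At an unadjusted p under 0.05, 4 were lower and 1 higher. Irf1, the transcription factor that acts on Cd274 in this path, had 255, 286 and 289 counts in scrambled control and 116, 138 and 148 in IFNγR1KO libraries. This gave 28.0 ± 0.395 CPM against 18.7 ± 2.16 CPM (SD, n = 3) without overlap and a log2 fold change of -0.59 (standard error 0.150, edgeR adjusted p = 0.0203). That call was lost without scrambled control replicate 2, IFNγR1KO replicate 10 or IFNγR1KO replicate 11 (edgeR adjusted p = 0.0667 to 0.109). Socs3, a feedback inhibitor of JAK signaling, was lower, with a log2 fold change of -0.83 (edgeR adjusted p = 0.011), but not without IFNγR1KO replicate 11 (edgeR adjusted p = 0.0728).

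Jak1 and Jak2, the kinases of the receptor, had log2 fold changes of 0.14 (edgeR adjusted p = 0.654) and -0.05 (edgeR adjusted p = 0.865). Jak2 lies 54.4 kb from Cd274 on chromosome 19, and neither of these neighbours passed the test. Of 8 other transcription regulators of Cd274, including Rela, Hif1a and Myc, all were tested and 0 were called by edgeR, DESeq2 or limma voom, and at an unadjusted p under 0.05 Jun was higher and Myc and Yap1 lower. Without IFNγR1KO replicate 12, 1 of the 8 was called lower.

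Of 15 genes whose products modify PD-L1 or CD47 protein, 1 was lower and 0 higher by an adjusted p under 0.05, against 5 lower and 1 higher at an unadjusted p under 0.05. The share called lower was 6.67%, near the 7.62% of all genes tested. Without IFNγR1KO replicate 12 the list gave 3 lower, and without scrambled control replicate 3 it gave 1 higher and 0 lower. Hip1r, which directs PD-L1 to lysosomes, was the called gene (log2 fold change -0.46, edgeR adjusted p = 0.0443). This was a call that was lost in 5 of the 6 fits that left out 1 library. Cmtm6, which keeps PD-L1 from degradation, was at 23.6 ± 1.48 CPM and 17.2 ± 1.20 CPM (SD, n = 3) without overlap (log2 fold change -0.46, edgeR adjusted p = 0.0594). Groups without overlap were found for 32.6% of all genes tested. Qpctl, which modifies CD47 so that SIRPα binds it, had a log2 fold change of 0.05 (edgeR adjusted p = 0.914). These are RNA levels, and the protein of neither ligand was measured in these files.

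Interferon-γ target genes gave the background for the ligands. Of 25 such genes, 20 were tested, of which 11 were lower (55%, beside 7.62% of all genes tested) and 0 higher, with a median log2 fold change of -0.85. None was higher at an unadjusted p under 0.05, and DESeq2 and limma voom each called 12. H2-K1, an MHC class I heavy chain, had a log2 fold change of -1.98 (22.8 ± 0.415 against 5.76 ± 0.259 CPM, SD, n = 3; edgeR adjusted p = 1.53e-05). Gbp2, an interferon-inducible GTPase, had one of -1.97 (edgeR adjusted p = 0.000206), and Psmb8, a subunit of the immunoproteasome, one of -2.66 (edgeR adjusted p = 0.000289). The MHC class I and Gbp families hold near-identical copies, so their counts are less certain.

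The tested ligands were set beside this list. Cd276 at -1.15, Lgals9 at -0.65, Nectin2 at -0.07 and Cd47 at 0.02 lay among the target genes. The highest target genes were Tapbp at 0.19, Cxcl10 at 0.17 and Tap1 at 0.03. The estimate of 0.20 for Cd274 lay just above Tapbp, and that of 0.28 for Pvr lay further above. The estimate of Cd274 was 0.04 without IFNγR1KO replicate 10 and 0.39 without IFNγR1KO replicate 12, the lowest and highest when single libraries were left out. No test of Cd274 against the list was made.

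**Figure D4:**
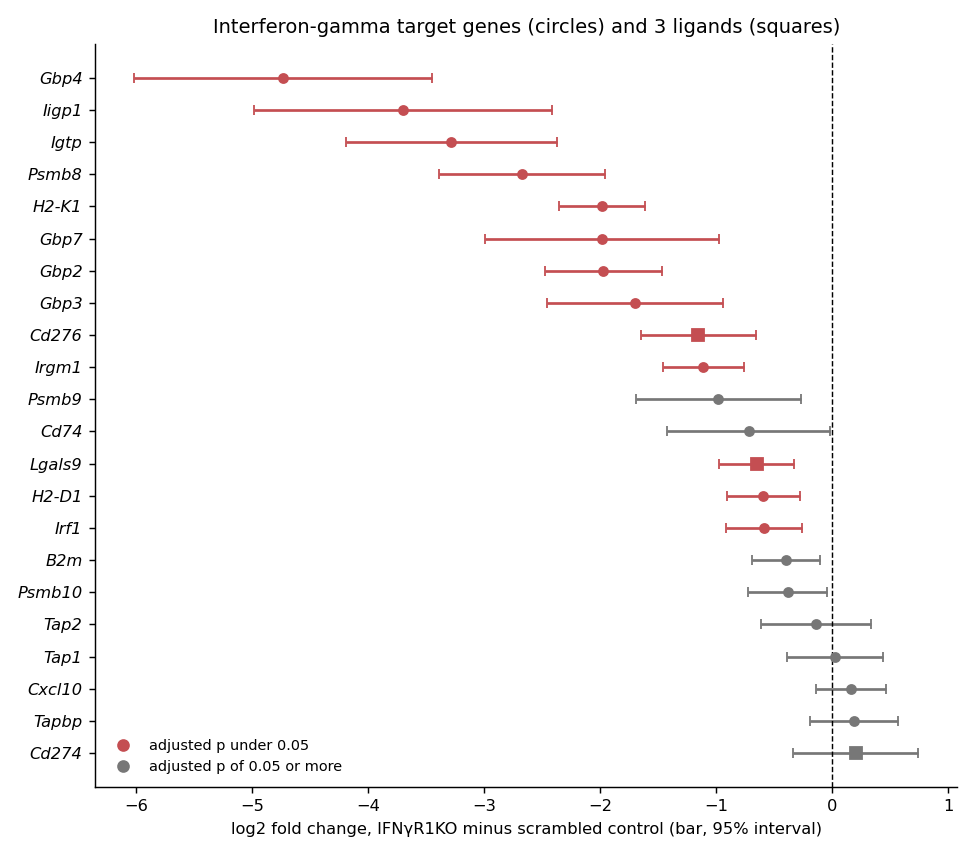
Log2 fold change, IFNγR1KO minus scrambled control (x axis), of the tested interferon-γ target genes named on the y axis (circles) and of Cd276, Lgals9 and Cd274 (squares), as fitted coefficients with 95% intervals and red for an edgeR adjusted p under 0.05. H2-K1 is near -1.98, Cd276 near -1.15 and Lgals9 near -0.65, and Cd274 at 0.20 is next to Tapbp at 0.19 and Cxcl10 at 0.17.

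Beyond the 10 ligands, 23 other checkpoint and costimulatory ligands were counted. Of these 12 had 3 counts or fewer in every library, 8 were tested, 4 were lower and 0 higher by an adjusted p under 0.05 (5 lower and 0 higher unadjusted), with a median log2 fold change of -0.64. The share called lower was 50%, beside 7.62% of all genes tested. H2-T23 (Qa-1), a ligand of the inhibitory receptor NKG2A, fell from 10.6 ± 2.76 to 3.96 ± 0.519 CPM (SD, n = 3; log2 fold change -1.42, edgeR adjusted p = 0.00272). Icosl, the ligand of ICOS and like Cd276 a B7 family gene, had 24, 22 and 32 counts in scrambled control and 7, 1 and 3 in IFNγR1KO libraries (log2 fold change -2.33, edgeR adjusted p = 0.00669). Tnfsf9 (4-1BBL), a costimulatory ligand, was lower, with a log2 fold change of -0.76 (edgeR adjusted p = 0.0153), but not without IFNγR1KO replicate 11 (edgeR adjusted p = 0.0938). Without that library 2 of the 4 calls of this list were left. The fourth called gene, Hmgb1, is foremost a chromatin protein (log2 fold change -0.52, edgeR adjusted p = 0.026). Vsir (VISTA), Cd200, Cd70, Tnfsf4 and Vsig4 had no count in any library. The called genes thus include ligands of inhibitory and of costimulatory receptors.

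Nectin3, an adhesion protein that binds other nectins, averaged 3.15 (scrambled control) and 2.68 (IFNγR1KO) CPM per kilobase, below Nectin2, with a log2 fold change of -0.23 (edgeR adjusted p = 0.278). Ceacam1, a ligand of TIM-3 like galectin-9, had 24, 42 and 44 counts against 13, 18 and 7 without overlap (log2 fold change -1.06, edgeR adjusted p = 0.0622). Nectin3 and Ceacam1 were named after their values had been seen.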

How the data were processed

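Paired-end reads were mapped by the authors to GRCm38 (STAR 2.7.5a), and the deposited counts, 1 file per library, are the raw output of htseq-count (HTSeq 0.11.2). The annotation release and strand setting are not given in the sources used here. Reads assigned to genes were 46.0% to 47.0% of the reads counted, and those in no feature 46.9% to 47.7%. The latter were left out of library sizes.

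Of the 55335 identifiers, 55154 are in GENCODE M21, which gave symbols, positions and exon lengths. Counts were tested in R 4.3.3 with edgeR 4.0.16: filterByExpr (minimum count 10, minimum total 15), TMM scaling and the quasi-likelihood test over all genes tested, with Benjamini-Hochberg adjustment and a threshold of 0.05. The study's own test was DESeq2. Standard errors are the coefficient divided by the root of F. Alternatives were DESeq2 1.42.0, limma 3.58.1 voom, other scalings, filters, thinned counts, other lengths, and each library left out. The tests were checked on simulated counts. The ligands and lists were chosen with earlier results of these data known. Named genes were all 10 ligands, Ifngr1, Jak1, Jak2, Irf1 and Cmtm6, for each list up to 3 called genes in each direction by smallest adjusted p, and the 3 genes nearest in pattern to the called ligand with the smallest adjusted p. Others were named after their values were seen. Some genes of these lists are counted but not described here. Promoter windows are those of RefSeq.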

Additional observations from a re-analysis of the deposited data

How the results depend on the processing

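Under 7 other tests, scalings and filters, Cd276 stayed between -1.18 and -1.10 and Lgals9 between -0.68 and -0.60 on the log2 scale, both called, and no other ligand was called. The number of called ligands was 2 in the report, 1 with an absolute log2 fold change above 1 required as well, and 1 to 2 when single libraries were left out. Without scrambled control replicate 2 or IFNγR1KO replicate 11 it was 1, Lgals9 being lost. With single libraries left out, the log2 fold change ranged from -1.38 to -1.02 for Cd276, from -0.73 to -0.53 for Lgals9, from 0.04 to 0.39 for Cd274, from 0.22 to 0.36 for Pvr, from -0.14 to 0.03 for Nectin2 and from -0.09 to 0.11 for Cd47. Signs turned for Nectin2 (0.028 without scrambled control replicate 2, 0.022 without IFNγR1KO replicate 11), Cd47 (-0.0086 with no filter on low counts, -0.0063 without scrambled control replicate 2, -0.088 without IFNγR1KO replicate 10), Jak1 (-0.030 without IFNγR1KO replicate 12) and Jak2 (0.036 without scrambled control replicate 3, 0.014 without IFNγR1KO replicate 11), none of them called. The estimates of Jak1 reached from -0.030 to 0.30 and those of Jak2 from -0.14 to 0.036. Over all genes, 2093 calls became 1087, 1095 and 1028 without scrambled control replicate 2, IFNγR1KO replicate 10 or IFNγR1KO replicate 11, and 2824 without IFNγR1KO replicate 12. The cause was not tested. No scaling moved the median of all genes by more than 0.05. No paired analysis was possible because the groups share no replicate number. At this depth Pdcd1lg2, Cd80, Cd86 and Vtcn1 could not be tested.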

Other observations

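Ligands of NKG2D, an activating receptor of natural killer and T cells, were also measured. Of 9 such genes in the list, 5 were found in the count tables and 2 were tested, and both were lower in IFNγR1KO cells, beside 7.62% of all genes tested. Raet1e had 40, 45 and 25 counts in scrambled control and 5, 4 and 5 in IFNγR1KO libraries, or 3.75 ± 1.15 against 0.652 ± 0.0952 CPM (SD, n = 3; log2 fold change -2.49, edgeR adjusted p = 0.00156). Raet1d had 205, 210 and 198 counts in scrambled control and 102, 107 and 50 in IFNγR1KO libraries (log2 fold change -0.79, edgeR adjusted p = 0.0388). The call of Raet1d was lost in 4 of the 6 fits that left out 1 library (edgeR adjusted p up to 0.122). The Raet1 genes are near-identical copies, so their separate counts are uncertain.

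Among 6 phagocytosis genes beside Cd47, 5 were tested, and 1 was called lower and 0 higher (2 lower and 1 higher at an unadjusted p under 0.05). Over all genes tested 7.62% were called lower. The list gave 1 higher and 0 lower without scrambled control replicate 3, and 1 higher and 1 lower with no filter on low counts. Thbs1, which encodes thrombospondin-1, a secreted protein that binds CD47, had 117, 108 and 194 counts in scrambled control and 53, 47 and 73 in IFNγR1KO libraries (log2 fold change -0.81, edgeR adjusted p = 0.0454). That call was lost with limma voom, without a scaling factor, with thinned counts and in 5 of the 6 fits that left out 1 library (edgeR adjusted p up to 0.197). Calr, which encodes calreticulin, a protein that promotes phagocytosis at the cell surface, had a log2 fold change of 0.29 (edgeR adjusted p = 0.259), and Lrp1, its receptor, one of 0.55 (edgeR adjusted p = 0.142).

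Of the other marker lists, the 4 B cell and the 4 endothelial cell markers had 3 counts or fewer in every library. Among the myeloid and dendritic cell markers, Csf1r and Lyz2 were tested and not called, and the list summed to 13.9 to 15.2 CPM in scrambled control and 11.5 to 13.3 CPM in IFNγR1KO libraries. Among 5 fibroblast markers, Col1a1, a collagen chain, was higher in IFNγR1KO cells (1.33 ± 0.357 against 5.20 ± 1.39 CPM, SD, n = 3; log2 fold change 1.96, edgeR adjusted p = 0.00175), while Pdgfra was at 3.60 ± 0.481 against 2.10 ± 0.327 CPM without overlap (SD, n = 3; log2 fold change -0.77, edgeR adjusted p = 0.0866). Dcn and Lum had 1 count or fewer in every library. None of the 7 melanocyte markers was called by edgeR, DESeq2 or limma voom, and at an unadjusted p under 0.05 Mitf was higher.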
